A study of Mus musculus with 12 samples.

Results

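The Wnt signaling genes of 2 primary lines of murine PDAC, 15376T and 14837T, were followed through the copy-number tables made from their whole-exome sequencing (WES). WES captures the exons of genomic DNA, and copy number is read from how deeply a stretch of the genome was covered relative to a reference. The genes were chosen by name and role, though with earlier results of these data known. They are 19 Wnt ligands, 10 Frizzled receptors, 5 co-receptors, 8 secreted antagonists, Wls, 5 genes of the β-catenin complex and 4 TCF/LEF factors. All 52 were found in both tables, among 18925 protein-coding autosomal genes with values in both lines. All of them lie on autosomes, on 16 chromosomes.

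The study asked how pancreatic tumor cells with high Lin28b act on fibroblasts through Wnt ligands, and 15376T is its line with high Lin28b. Its series holds 12 samples, of which the WES of the 2 tumor lines was analysed. Both lines came from C57BL/6 mice whose engineered alleles included p48-Cre, ROSA_rtTA and p53 L/+. The p48 (Ptf1a) promoter drives Cre in the developing pancreas, and rtTA is an activator that depends on doxycycline. The label gives the genotype of both cultures as WT, read here as the absence of the Lin28b knockout. By the methods of the study, cells were kept in DMEM with serum, antibiotics and doxycycline. The labels do not say how many animals or clones stand behind a line, and there was 1 library per line, so differences between the lines carry no test and no p-value. RNA-seq samples and tail DNA of the series were not analysed here, and since DNA carries no expression markers the labelled cell type was not checked. The methods and the labels name different human exon capture kits for this mouse DNA.

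Wnt ligands are secreted lipid-modified proteins that carry signals between neighboring cells. At the receiving cell they bind a Frizzled receptor together with a co-receptor, and in the canonical branch this stops a destruction complex of Apc, Axin and Gsk3 from marking β-catenin for degradation. β-catenin then enters the nucleus and acts with TCF/LEF factors on target genes. Non-canonical branches use receptors such as Ror2 and Ryk and signal without β-catenin. Wnt signaling shapes pancreas development, and PDAC can depend on Wnt ligands where the ubiquitin ligase Rnf43 is lost.

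The value of each gene is the log2 ratio of the segment that covers it. Segments are stretches of adjacent bins with a shared coverage level, so genes in the same segment have the same value. The 52 genes lay in 36 segments in 15376T and in 36 segments in 14837T. These segments spanned 1.09 to 143 Mb in 15376T and 1.58 to 127 Mb in 14837T, and the fullest held 1466 coding genes, so a value is that of a region and not of a Wnt gene by itself. The smallest of them held 90 bins in 15376T and 50 bins in 14837T. Fewer than 2 copies in the deposited integer calls is written as lost, and more than 2 as gained. These calls followed log2 thresholds of −0.25 for a loss and 0.2 for a gain, with 0 exceptions on the autosomes. A log2 of 0.7 was taken as the threshold for 4 copies and was not checked in this way. The SD of log2 among autosomal segments at 2 copies, 0.090 in 15376T (103 segments) and 0.095 in 14837T (96 segments), stands in for the replicate error that 1 library cannot give. It covers the spread between segments and not a repeat of the culture. Since the segments were picked by their call, the call thresholds also bound this SD. Differences between the lines are set against the larger of these SDs, 0.095. That is the spread within a single line, and the spread of a difference between lines can be wider. The mean read depth over the autosomes was 43.4 in 15376T and 47.5 in 14837T. If every cell of a diploid culture lost 1 of 2 copies the log2 would be −1, and with 3 copies it would be 0.585, so the integers name a threshold that was passed and not a copy number in every cell.

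In 15376T, 16 of the 52 genes were lost and 7 were gained. Among all coding genes 30.3% were lost and 9.18% gained, against 30.8% and 13.5% of the Wnt genes. In 14837T, 11 were lost and 15 were gained, or 21.2% and 28.8%, against 28.9% and 21.5% of all coding genes. The call differed between the lines for 19 of 52 genes (36.5%), and for 29.4% of all coding genes. Counted by gene, the lost share in 15376T was that of the genome at large. In 14837T the Wnt genes had, by the same count, a lower lost share and a higher gained share than the genome. Counted by segment, 10 of 36 were lost and 12 gained in 14837T, and 11 of 36 were lost and 6 gained in 15376T. In 14837T 1 segment at 2 copies held 5 of the 52 genes. Genes of the same segment do not count as separate events, and no test was made of these shares. The median log2 of the 52 genes was 0.0033 in 15376T and −0.036 in 14837T, and that of all coding genes was −0.023 and −0.045.

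**Figure D1:**
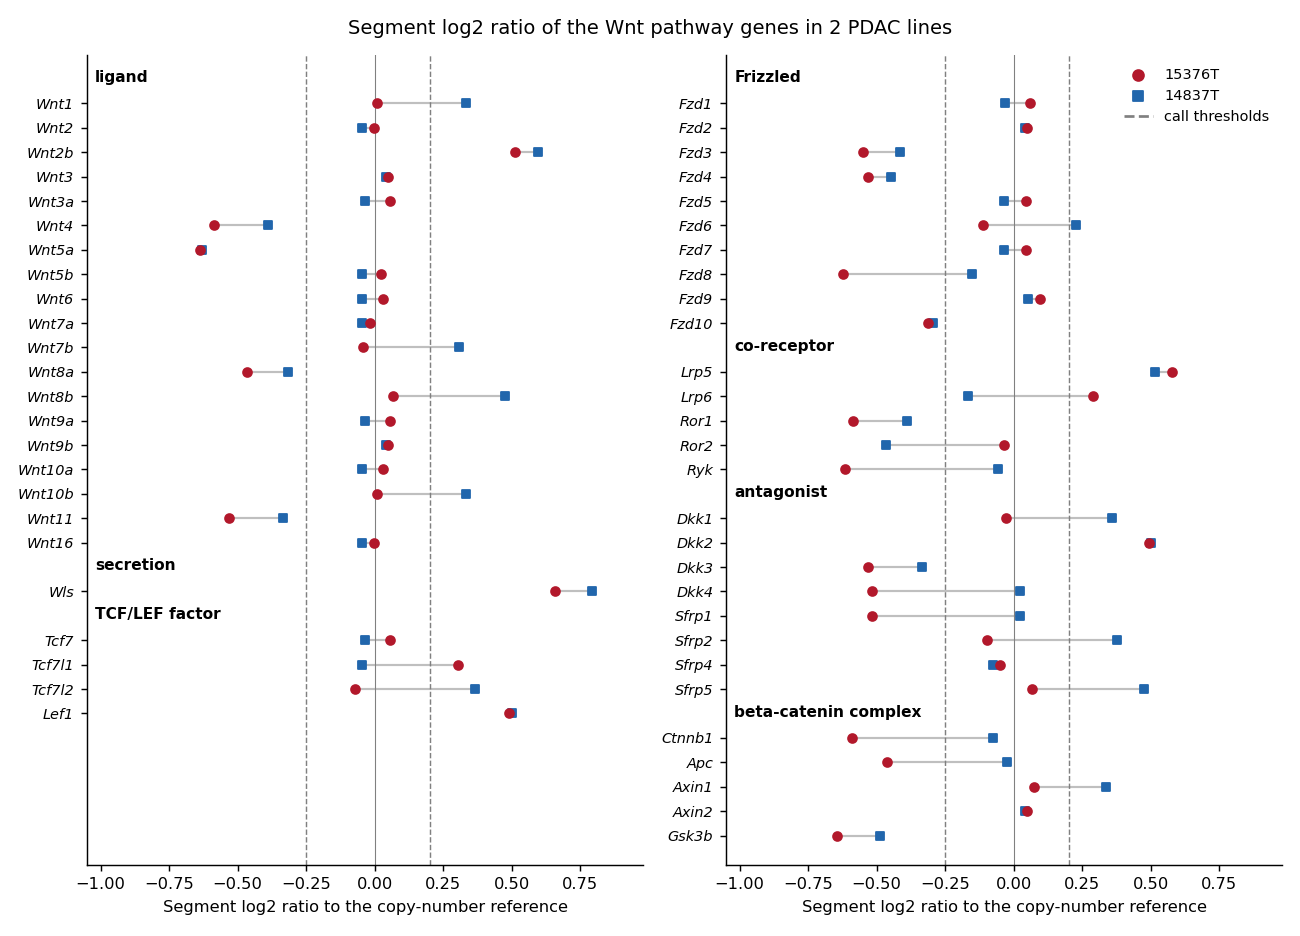
Segment log2 ratio of each of the 52 genes (x axis, log2 scale) in 15376T (circles) and 14837T (squares), grouped by role, with the thresholds for a loss and a gain as dashed lines. Each point is 1 library and has no error bar, and Wls, Lrp5, Wnt2b, Dkk2 and Lef1 lie right of the gain threshold in both lines, whereas Gsk3b and Wnt5a lie farthest to the left in 15376T.

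Among the 19 ligands, 4 were lost in both lines (21.1%, against 22.5% of all coding genes), namely Wnt4, Wnt5a, Wnt8a and Wnt11. Wnt5a, the ligand at the center of the study and best known for non-canonical signaling, was the lowest of them, with a log2 of −0.64 in 15376T and −0.63 in 14837T. The difference between the lines was −0.0084, far below the SD between segments, and the integer call was 1 copy in each line. Wnt5a lies at chr14:28504543-28527448 (GRCm38.p6) in a segment of 3.60 Mb with 315 bins in 15376T and of 1.86 Mb with 151 bins in 14837T. In 14837T a border lay 233 kb from the gene, and the log2 beyond it was −0.33. Wnt4, which acts in kidney and female gonad development, had a log2 of −0.59 in 15376T and −0.39 in 14837T. Wnt11, a non-canonical ligand of early morphogenesis, followed with −0.53 and −0.34. Wnt8a, a canonical ligand of the early embryo, had −0.46 and −0.32. All 4 lay lower in 15376T, as did 92.8% of all coding genes that were lost in both lines, so lower values in 15376T were general among such genes.

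Gained in both lines was 1 ligand of 19 (5.26%, against 6.95% of all coding genes), Wnt2b, a canonical ligand of lung and gut mesenchyme. Its log2 was 0.51 in 15376T and 0.60 in 14837T, with 3 copies called in each. Another 4 ligands were gained in 14837T only, a pattern of 13.4% of all coding genes. Wnt1 and Wnt10b, canonical ligands that lie 11.7 kb apart on chromosome 15, shared a log2 of 0.0086 in 15376T and 0.33 in 14837T. Wnt7b, a ligand of lung and kidney epithelium on the same chromosome, had −0.043 and 0.31. Wnt8b, a ligand of the embryonic forebrain, had 0.065 and 0.48. Wnt10a, the other ligand that the study raised besides Wnt5a, had 2 copies called in both lines and a log2 of 0.031 in 15376T and −0.048 in 14837T. The remaining 9 ligands, Wnt2, Wnt3, Wnt3a, Wnt5b, Wnt6, Wnt7a, Wnt9a, Wnt9b and Wnt16, were also at 2 copies in both lines. The call differed between the lines for 4 of 19 ligands (21.1%, against 29.4% of all coding genes), each a gain of 14837T. No ligand was lost in 1 line only, a pattern of 6.64% of all coding genes for 15376T and 6.01% for 14837T.

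Sister ligands did not always share a copy number. Of 7 pairs of sister ligands, such as Wnt5a and Wnt5b, 3 had different copy numbers in 15376T and 5 in 14837T. The sisters of a pair lay in different segments in both lines, and pairs of unrelated genes were not counted. Among all coding genes 60.5% were at 2 copies in 15376T and 49.7% in 14837T, so unlike calls are common for any 2 genes. The counts are thus not read as a trait of sister ligands. Wnt5a was called at 1 copy and Wnt5b at 2 copies in each line, and their log2 differed by −0.66 in 15376T and −0.58 in 14837T. For Wnt8a and Wnt8b the difference was −0.53 and −0.79. Close neighbors were also read, namely 4 pairs of ligand genes within 100 kb of each other (Wnt6 and Wnt10a, Wnt3a and Wnt9a, Wnt3 and Wnt9b, Wnt1 and Wnt10b). Each pair shared its segment in both lines. The genes of a pair lay at most 16.1 kb apart, so a shared segment was likely from position alone.

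Wls, the carrier that takes Wnt ligands to the cell surface, had the highest log2 of all 52 genes in both lines. It was 0.66 in 15376T, called as 3 copies, and 0.79 in 14837T, called as 4 copies. Both values came from the distal end of chromosome 3. The segment with Wls held 8 coding genes in 15376T and 3 in 14837T, and 50 bins in the latter, the fewest behind any value here. The difference of −0.13 between the lines was 1.41 times the SD between segments.

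Of the 10 Frizzled receptors, which bind the ligand at the cell surface, 4 were lost and 0 gained in 15376T, and 3 were lost and 1 gained in 14837T. The shares of all coding genes were 30.3% lost and 9.18% gained in 15376T, and 28.9% and 21.5% in 14837T. Fzd4, the receptor that the study examined for Wnt5a, had a log2 of −0.53 in 15376T and −0.45 in 14837T, 1 copy in each. The difference was smaller than the SD between segments. Fzd4 lies at chr7:89404366-89410110 (GRCm38.p6), and in 15376T its segment of 122 Mb, with 1466 coding genes, also carried Wnt11 and Dkk3. In 14837T the same 3 genes lay in 3 segments. Fzd3, a receptor of axon guidance and planar cell polarity, had −0.55 and −0.42. Fzd10 had −0.31 and −0.29, the values closest to the loss threshold. Its segment in 15376T held 90 bins and ended 183 kb from the gene. The receptors with a different call were Fzd8 and Fzd6. Fzd8 had a log2 of −0.62 in 15376T, 1 copy, and −0.15 in 14837T, 2 copies. Fzd6 had −0.11 in 15376T, 2 copies, and 0.23 in 14837T, 3 copies, just above the gain threshold. Fzd1, Fzd2, Fzd5, Fzd7 and Fzd9 were at 2 copies in both lines, with Fzd9 the highest of the class in 15376T at 0.094.

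The co-receptors moved in both directions. Lrp5 and Lrp6 are the paired co-receptors of canonical signaling. Lrp5 was gained in both, with a log2 of 0.58 in 15376T and 0.52 in 14837T. Lrp6 was gained in 15376T only, with 0.29 against −0.17 in 14837T. In 14837T the segment with Lrp6 ended 43 kb from the gene, and the log2 beyond that border was 0.68. Of the receptors of non-canonical signaling, Ror1 was lost in both lines, with −0.59 and −0.39. It shared a segment with Wnt4. Ror2, a receptor for Wnt5a, was at 2 copies in 15376T, with −0.036, and was lost in 14837T, with −0.47. It was the only gene of the 52 that was lost in 14837T alone, a pattern of 6.01% of all coding genes. Ryk, a Wnt receptor with an inactive kinase domain, showed the widest gap of all. Its log2 was −0.62 in 15376T and −0.058 in 14837T, a difference of −0.56 or 5.85 times the SD between segments.

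Secreted antagonists lower Wnt signaling. Most Dkk proteins act on Lrp5 and Lrp6, and Sfrp proteins bind the ligands themselves. In 15376T 3 of 8 were lost and 1 gained, against 30.3% and 9.18% of all coding genes. In 14837T 1 was lost and 4 gained, against 28.9% and 21.5%. The median log2 of the class was −0.074 in 15376T and 0.19 in 14837T (0.36 with each segment taken a single time). The call differed for 5 of 8, and for 29.4% of all coding genes. Dkk4 and Sfrp1, which lie in the same segment of chromosome 8, were lost in 15376T only, with a log2 of −0.52 against 0.022. Sfrp2 was gained in 14837T only, with −0.098 in 15376T and 0.38 in 14837T. Dkk1, with −0.030 and 0.36, and Sfrp5, with 0.065 and 0.48, both on chromosome 19, had the same pattern. Dkk2 was gained in both lines, with 0.49 and 0.50, and Dkk3 was lost in both, with −0.53 and −0.33. Sfrp4 was at 2 copies in each. For each of the 5 antagonists with a different call the lower log2 was that of 15376T, as for 72% of such coding genes.

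In the β-catenin complex 3 of 5 genes were lost in 15376T and 1 of 5 in 14837T, against 30.3% and 28.9% of all coding genes. The median log2 of the class was −0.46 in 15376T and −0.025 in 14837T, the widest gap of any class by the median. The mean of the class was −0.32 and −0.043, and by the mean the gap of the antagonists, −0.15 and 0.17, was wider. Ctnnb1, which encodes β-catenin and lies at chr9:120933400-120960507 (GRCm38.p6), had a log2 of −0.59 in 15376T, 1 copy, and −0.075 in 14837T, 2 copies. Apc, the scaffold of the destruction complex, had −0.46 and −0.025. Gsk3b, the kinase that phosphorylates β-catenin, was lost in both lines. With −0.65 it was the lowest of the 52 genes in 15376T, and it had −0.49 in 14837T. Ctnnb1 thus shared its loss call in 15376T with Apc and Gsk3b, which act to keep β-catenin low. The scaffold Axin1 was at 2 copies in 15376T, with 0.074, and gained in 14837T, with 0.34, whereas Axin2, also a target gene of the pathway, was at 2 copies in both, with 0.050 and 0.040.

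Apc was the only gene of the 52 that crossed a segment border, and only in 14837T, where such a border lay inside 0.592% of all coding genes. Of the gene, 67.8% lay in a segment at chr18:32123223-34289416 (mm10) with a log2 of −0.025, 2 copies and 177 bins. Another 31.8% lay in the next segment, at chr18:34289800-42519599, with −0.32, 1 copy and 965 bins. Wnt8a lies in the latter segment. The call of 2 copies for Apc in 14837T was thus that of the larger part of the gene, and the tables do not place a border more closely than a bin.

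Of the TCF/LEF factors, which bring β-catenin to DNA, 0 of 4 were lost in either line and 2 of 4 were gained in each. Among all coding genes 30.3% were lost and 9.18% gained in 15376T, and 28.9% and 21.5% in 14837T. Lef1 was gained in both, with a log2 of 0.49 in 15376T and 0.50 in 14837T, in the segment of Dkk2. Tcf7l1, most often a repressor of target genes, was gained in 15376T only, with 0.30 against −0.045. Tcf7l2 was gained in 14837T only, with −0.071 in 15376T and 0.37 in 14837T. Tcf7 was at 2 copies in both lines.

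**Figure D2:**
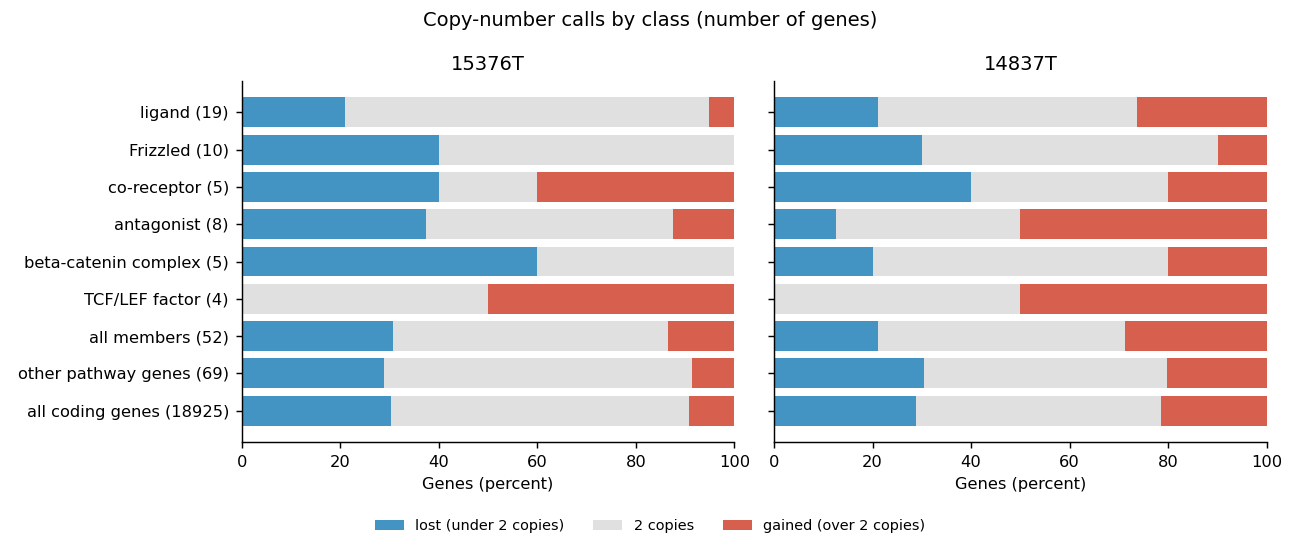
Share of genes (x axis, percent) called lost, at 2 copies or gained in each role class, in all 52 genes, in the other Wnt pathway genes and in all coding genes, for 15376T (left) and 14837T (right), with the number of genes in brackets. The β-catenin complex has the largest lost share in 15376T (3 of 5 genes), and among the classes drawn, which leave out Wls, the antagonists and TCF/LEF factors have the largest gained shares in 14837T (4 of 8 and 2 of 4).

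The 2 lines were then compared gene by gene. Lost in both were 10 genes (19.2%, against 22.5% of all coding genes), namely Wnt4, Wnt5a, Wnt8a, Wnt11, Fzd3, Fzd4, Fzd10, Ror1, Dkk3 and Gsk3b. At an absolute log2 of at least 0.5 only Wnt5a of these was lost in both, and 2.01% of all coding genes were. Gained in both were 5 (9.62%, against 6.95%), of which Wnt2b, Dkk2, Lef1 and Wls lie on chromosome 3 and Lrp5 on chromosome 19. Lost in 15376T only were Fzd8, Ryk, Dkk4, Sfrp1, Ctnnb1 and Apc, 6 genes against a background of 6.64%. Gained in 15376T only were Lrp6 and Tcf7l1, against 1.87%. Gained in 14837T only were 10 genes, against 13.4%. The remaining 18 were at 2 copies in both, against 41.1%. Of the 52 genes 0 were lost in the one line and gained in the other, as 1.53% of all coding genes were.

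The genes gained in 14837T only were Wnt1, Wnt7b, Wnt10b and Fzd6 on chromosome 15, Wnt8b, Dkk1, Sfrp5 and Tcf7l2 on chromosome 19, Sfrp2 on chromosome 3 and Axin1 on chromosome 17. In 14837T 93.3% of the coding genes of chromosome 15 and 99.7% of those of chromosomes 3 and 19 were called gained, so all the Wnt genes on these 3 chromosomes, 14 in number, were gained with them. In 15376T the gained share was 71.1% of chromosome 3, 44.0% of chromosome 19 and 37.5% of chromosome 15, and 5 of these 14 genes were gained.

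The 19 genes with a different call differed in log2 by 0.26 (Axin1) to 0.56 (Ryk), or 2.75 to 5.85 times the SD between segments. Calls and SD rest on the same thresholds, and the SD is that of a single line, so these multiples do not test the calls. The log2 was lower in 15376T for 16 of them and higher for 3, namely Lrp6, Ror2 and Tcf7l1, and 72% of all coding genes with a different call also lay lower in 15376T. Among the 33 genes with the same call the difference was at most 0.20, and it passed the SD for 8. Over all 52 genes the difference passed the SD for 27 (51.9%), against 55.3% of all coding genes. The 18 genes at 2 copies in both lines all lay higher in 15376T, by 0.0097 to 0.092, each less than the SD, and 68.8% of all coding genes with these calls did so. Calls within 0.1 of a threshold are less firm. They were those of Fzd10, Lrp6 and Wls in 15376T, and of Wnt8a, Wnt11, Fzd6, Fzd8, Fzd10, Lrp6, Dkk3 and Wls in 14837T. For Wls the threshold was that of 4 copies, which its log2 missed in 15376T and passed in 14837T.

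**Figure D3:**
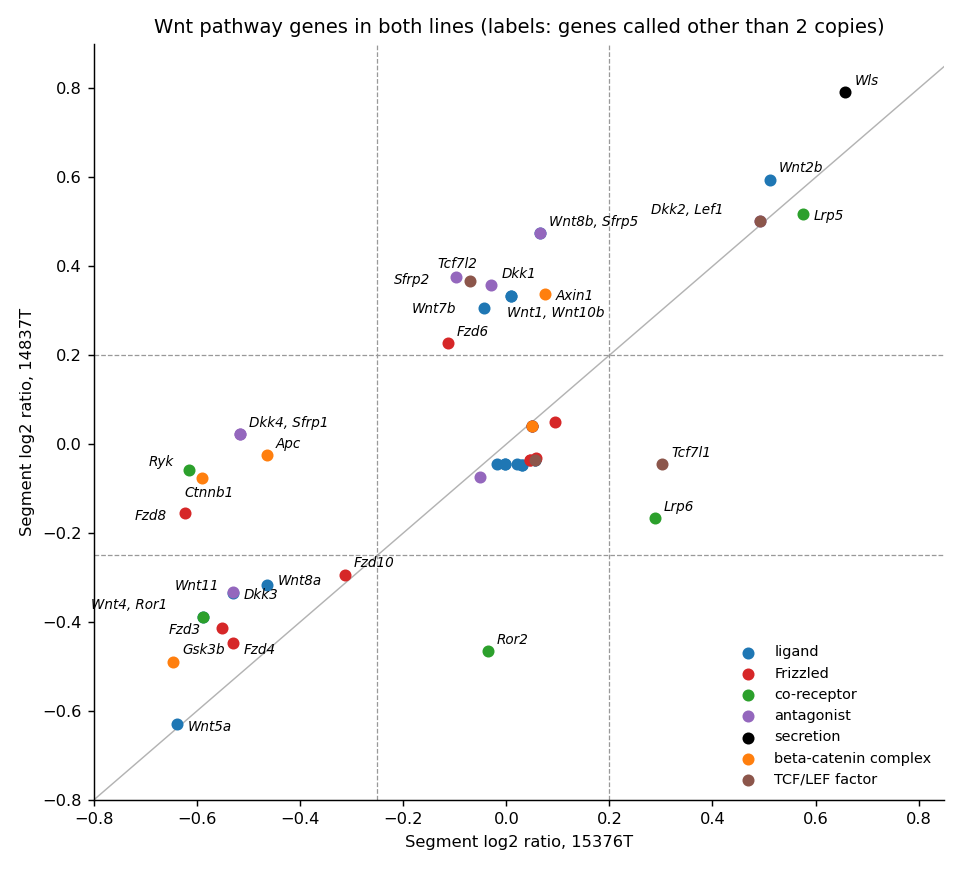
Segment log2 ratio of the 52 genes in 15376T (x axis) against 14837T (y axis), colored by role, with the call thresholds as dashed lines and equality as a gray line; genes called other than 2 copies in a line are named. The group at the left middle (Fzd8, Ryk, Ctnnb1, Apc, Dkk4 and Sfrp1) was lost in 15376T only, the group at the top center was gained in 14837T only, and no gene lies in the top left or bottom right corner.

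Few of the genes lay close to a segment border. In 15376T 1 of 52 (Fzd10) lay within 250 kb of a border, against 5.19% of all coding genes. In 14837T 4 did (Apc, Lrp6, Wnt2b and Wnt5a), against 6.76%. The border near Wnt2b lay 70.4 kb from the gene. The ends of chromosomes were not counted as borders. Wls lies at such an end, since the last segment of chromosome 3 stopped at position 159934364 in both lines, inside the gene, which runs from 159839650 to 159938666 (GRCm38.p6).

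The B-allele fraction (BAF) of a segment is the fraction of non-reference reads over its variant sites. In an inbred strain few sites are heterozygous, and the tables do not give the number of sites behind a value, so its precision is unknown. Median BAF of the segments was 0.068 over 50 genes in 15376T and 0.055 over 49 genes in 14837T, against 0.083 and 0.061 over all coding genes. It was blank for Wnt5a and Wls in both lines and for Apc in 14837T. BAF was over 0.25, a limit chosen after the values were seen, for 7 genes in each line (14% in 15376T and 14.3% in 14837T, against 19.5% and 9.23% of all coding genes).

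In 15376T these were Wnt3a, Wnt9a and Tcf7, which share a segment of chromosome 11 with a BAF of 1.00, Wnt5b with 0.82, Wnt7a with 0.78, Sfrp4 with 0.30 and Ror2 with 0.29. All 7 were at 2 copies in that line. In 14837T they were Wnt2, Wnt5b, Wnt7a, Wnt16 and Tcf7l1, which share a segment of chromosome 6 with 0.40, Sfrp4 with 0.41, and Ror2 with 0.68. Ror2 was thus the gene with a loss call and a BAF over the limit, in 14837T. The other 10 genes lost in 14837T had a BAF of at most 0.072 or a blank. Wnt5b, Wnt7a, Sfrp4 and Ror2 were over the limit in both lines.

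**Figure D4:**
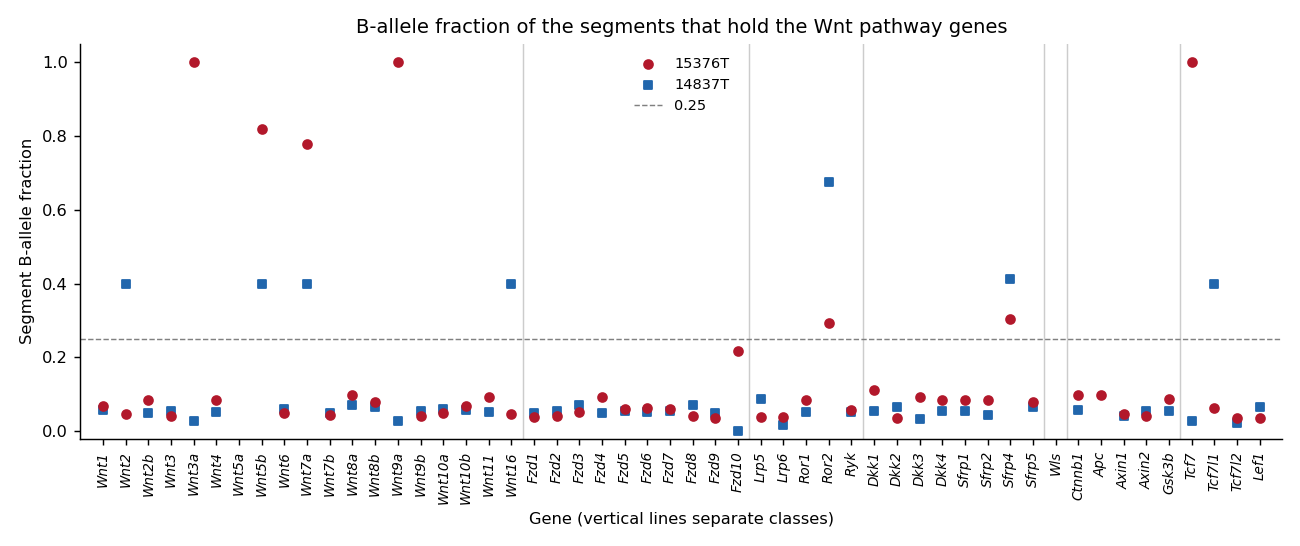
B-allele fraction (y axis, 0 to 1) of the segment that covers each of the 52 genes (x axis) in 15376T (circles) and 14837T (squares), with the limit of 0.25 as a dashed line; a missing symbol is a blank value. Most genes lie near the bottom of the plot in both lines, and the points over the limit are those of chromosomes 6, 11 and 13.

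The read depth of a gene over its own bins is the value in these tables that does not come from its segment. It was listed only for genes in segments with an absolute log2 of about 0.40 or more, so it shows no gene at 2 copies. Listed were 20 of the 52 genes in 15376T, 12 in 14837T and 9 in both. The depth of its own bins was below that of its segment for 14 of 20 genes (70%) in 15376T and for 9 of 12 (75%) in 14837T, against 36.5% and 34.1% of all listed coding genes. The median log2 of own over segment depth was −0.32 and −0.19 for the Wnt genes, and 0.16 and 0.19 for all listed coding genes. By the labels both libraries were captured with the same kit, so the lines do not count as repeats of this comparison.

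The classes differed in own depth. All 5 listed ligands and all 4 listed antagonists of 15376T lay below their segments, on 4 to 8 bins each. Wnt11 had a depth of 15.9 in a segment of 31.3, and Wnt5a had 23.5 in a segment of 31.1. Sfrp1 had 19.2 in a segment of 37.6, while its neighbor Dkk4 had 36.7. The β-catenin complex lay above. Ctnnb1 had a depth of 39.1 on 12 bins in a segment of 30.03, Apc had 45.2 on 19 bins against 35.5, and Gsk3b had 33.0 on 22 bins against 29.1. The part of exon capture and base composition in these depths was not tested. Fzd8 had the lowest own depth, 15.4, on 2 bins.

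For the 9 genes listed in both lines, the difference of own depth between the lines could be set against that of their segments. Each gene is here compared with itself over the same number of bins. The own difference minus the segment difference was −0.14 for Wnt5a, −0.24 for Fzd3 and 0.11 for Fzd4. It was −0.12 for Gsk3b, −0.15 for Dkk2 and −0.033 for Wls. For Wnt2b, Lrp5 and Lef1 it was 0.010, 0.040 and 0.088. Among 1938 coding genes with at least 5 bins listed in both lines the SD of this value was 0.147, and 7 of the 9 genes lay within 1 SD. These values rest on the median depth of segments at 2 copies as the base. With the median depth of each gene table as the base all 9 were above 0, and the median of the coding genes moved by the same 0.26. Fzd3, farthest from 0, lay at percentile 6.6. Wnt5a had a depth of 23.5 in 15376T and 27.3 in 14837T on 7 bins, and Fzd4 had 31.9 and 32.9 on 2 bins. Fzd4 falls among genes with 2 to 4 bins, and for 629 such coding genes the SD was 0.230. The value of Wnt5a, −0.14, lay within the SD of 0.147 for genes with at least 5 bins, at percentile 19.2. A change of either gene apart from its segment was thus not detectable at this depth.

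**Figure D5:**
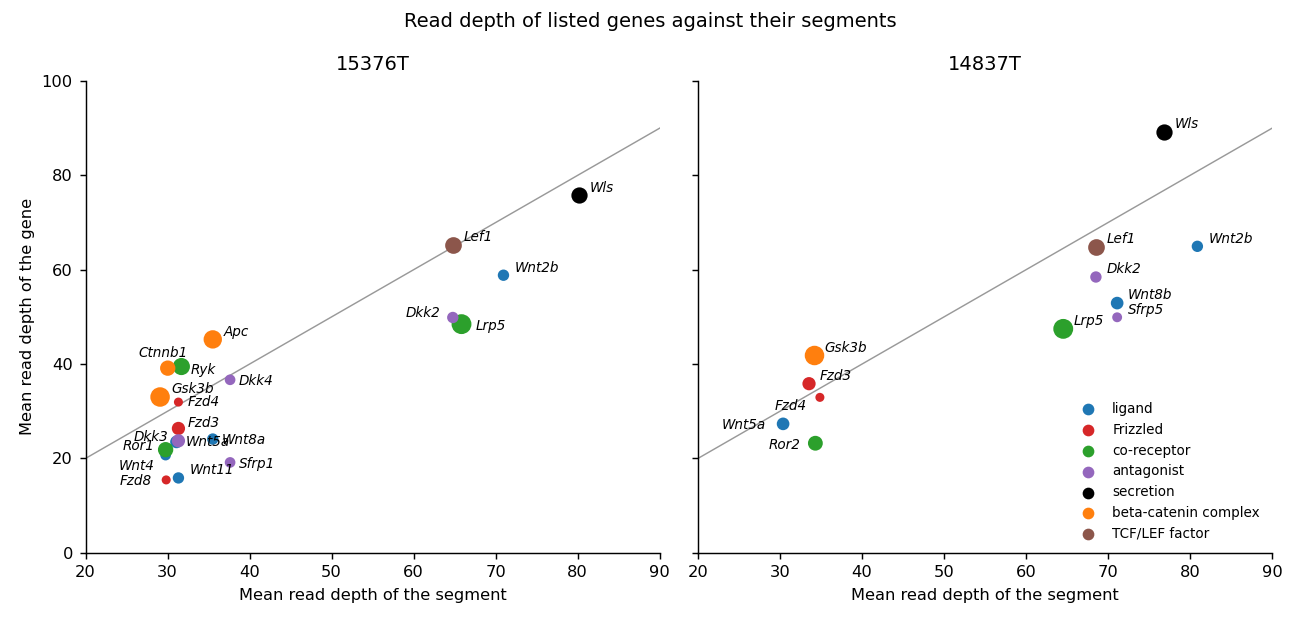
Mean read depth over a gene's own bins (y axis) against that of its segment (x axis) for the 20 genes listed in 15376T (left) and the 12 listed in 14837T (right), colored by role, with larger symbols for more bins and equality as a line. Ligands and antagonists lie below the line in both lines, and Ctnnb1, Apc and Gsk3b lie above it in 15376T.

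The other genes of the pathway were read in the same way from a list of 71 genes set by role, of which 69 are autosomal. In 15376T 20 of 69 were lost and 6 gained (29.0% and 8.70%, against 30.3% and 9.18% of all coding genes), and in 14837T 21 were lost and 14 gained (30.4% and 20.3%, against 28.9% and 21.5%). The call differed for 22 (31.9%, against 29.4%). These shares lay near the background, and the classes below are small and were not tested against it. Of the 3 Dishevelled genes, which relay the signal from the Frizzled receptor, 2 were lost in both lines. Dvl1 and Dvl3 are named here after their values were seen. Dvl1 was lost in both lines with a log2 of −0.51 and −0.34, and Dvl3 with −0.54 and −0.40. Dvl2 was at 2 copies in each. Rnf43, raised above and also named with its values seen, was at 2 copies in both lines. Its log2 was 0.056 in 15376T and 0.075 in 14837T, with a segment BAF of 1.00 and 0.97. Of the destruction complex and its regulators 4 of 14 were lost in 15376T and 6 of 14 in 14837T. The nuclear cofactors had 6 of 12 lost in 15376T, and 5 lost with 4 gained in 14837T. Bcl9, the adaptor between β-catenin and Pygo proteins, was gained in each line with 0.41 and 0.45. Of the 12 genes of planar cell polarity, a non-canonical branch, 3 were lost and 2 gained in 15376T, and 0 were lost and 5 gained in 14837T. Celsr3 and the GTPase Rhoa were among those lost in 15376T, with −0.46 against 0.10 in 14837T. They share a segment of chromosome 9 in each line and so do not count as separate events.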

How the data were processed

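WES libraries of the lines 15376T and 14837T were captured with human exon kits and sequenced. For each line the authors deposited a segment table and a gene table, with mm10 named in the submitters' processing notes. The log2 values the authors deposited relate the coverage of a segment to a copy-number reference, and the caller and reference are not given in the sources used here. The BAF deposited per segment is a fraction from 0 to 1. Read depth, a coverage signal with no stated normalization, was deposited by the authors for segments and genes. The deposited bin numbers are counts of bins, and the deposited weight is a score that was not used. The integer copy numbers are the authors' calls. A further engineered allele of the mice is not reported here.

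The 52 genes and the list of other pathway genes were chosen with earlier results of these data known. Each gene was placed by RefSeq (GRCm38.p6) and given the segment that overlapped most of it. Values in full were given for genes with a different call, genes in a gene table, Wnt5a, Wnt10a, Fzd4 and Ctnnb1, and class extremes. Other pathway genes could be named where gained or with a different call. The background was 18925 protein-coding autosomal genes. Own depth was set against segment depth, and against the median depth of segments at 2 copies (45.6 in 15376T, 47.9 in 14837T). With 1 library per line no model was fitted and no p-value computed. Precision was judged from the SD among segments at 2 copies, since the tables hold neither the spread between bins nor numbers of reads. Python 3.11.15, numpy 2.4.6, pandas 2.3.3 and matplotlib 3.10.9 were used, and the steps were tested on simulated data. Alternatives were other log2 limits, recentring, each segment taken a single time, means, and other depth bases.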

Additional observations from a re-analysis of the deposited data

Results flagged for a closer look

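Camk2g, a calcium-dependent kinase of the non-canonical Wnt-calcium branch on chromosome 14 and not among the 52 genes, was the only other pathway gene with opposite calls. Its log2 was 0.64 in 15376T, called as 3 copies, and −0.33 in 14837T, called as 1 copy. It drew attention because the 2 lines moved in opposite directions, as did 1.53% of all coding genes, so 1 of 69 is near the share of the genome. The difference was not tested, since each line had 1 library.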

How the results depend on the processing

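Of 97 recomputed values 80 stayed within their limits and 17 moved. No gain turned into a loss or the reverse, but some calls ended. Calls at an absolute log2 of at least 0.3 left all 14 counts within 1.5 times, as did recentring on the autosomal median. Under either setting 10 Wnt genes were lost in 14837T and 9 in both lines, as Fzd10 (−0.293 in 14837T) left the list. At 0.3 the gains of Lrp6 in 15376T (0.29) and Fzd6 in 14837T (0.23) ended too. Recentring raised the 12 class medians by 0.040 to 0.049, less than the SD between segments, and turned 5 medians near 0 from negative to positive (ligands in 14837T, Frizzled receptors in both lines, co-receptors in 15376T and the β-catenin complex in 14837T). Calls at an absolute log2 of at least 0.5 lowered the counts of Wnt genes to 3 gained in 15376T, 1 lost and 5 gained in 14837T, 1 lost in both lines (Wnt5a) and 3 gained in both (Wnt2b, Lrp5 and Wls). For the other pathway genes this limit gave 2 gained in 15376T, 1 lost and 3 gained in 14837T, 0 lost in both and 1 gained in both. The same limit cut the background to 3.14% lost and 4.30% gained in 14837T. With each segment taken a single time, the other pathway genes had 11 losses in 15376T, 12 in 14837T and 8 in both, fewer by construction, and the antagonist median in 14837T was 0.36. With means in place of medians the Frizzled value in 15376T was −0.18 and that of the β-catenin complex −0.32. The median of own minus segment difference between the lines was −0.033, and changed sign, to 0.23, with the median depth of each gene table as the base. The gene tables list different genes in the 2 lines, so this base differs by construction. No paired analysis was possible because there was 1 library per line and no shared replicate number. Calls within 0.1 of a threshold lie about as close to it as the SD between segments, and with 1 library no replicate could be left out.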
